A study of Mus musculus with 6 samples.

Results

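The genes described here are 10 interferon-stimulated genes of the mouse from 5 families, most of them known for action against viruses: Ifitm1, Ifitm2, Ifitm3 and Ifitm6 of the IFITM family, Bst2 (tetherin), Ifi27 and Ifi27l2a, Ifi44 and Ifi44l, and Rtp4. They were chosen by name, with earlier results of these data known, and each was found once among the 54532 genes of the deposited expression table. Of these 10 genes, 9 had a mean of at least 1 FPKM (fragment counts divided by gene length and library size) over all libraries and were tested together with 8882 genes in all, while Ifi44l had no fragment in any library.

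RNA sequencing of polyadenylated transcripts compared macrophages of WT mice with macrophages of mice lacking progranulin (PGRN KO), the secreted protein encoded by Grn. Both groups were of the C57BL/6J strain by the labels, and both were challenged in vitro with Candida albicans for 6 h, by the labels at 2000000 macrophages per well and 1 fungal cell per macrophage. WT was replicated as numbers 1 to 3 and PGRN KO as numbers 4 to 6, n = 3 each, and no unchallenged library was analysed here. By the study's methods the knockout mice and the WT mice came from different suppliers. The labels name the peritoneal cavity as the source of the cells and 1 fungal cell per macrophage, and the study's text names bone marrow and another ratio, so both remain unsettled, and the labels were used. Nothing in the labels says that libraries came from separate animals or cultures, so p-values measure only the spread between these samples, which may be technical.

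Each library held 15996786 to 17551619 fragments. Grn measured 328 ± 7.18 FPKM in WT against 0.0111 ± 0.0096 FPKM in PGRN KO (SD, n = 3 each), as the labels state. Of 6 macrophage markers, Adgre1 was at 162 FPKM or more in every library, Csf1r was lower in PGRN KO (32.5 against 24.7 FPKM in WT and PGRN KO, limma, adjusted p = 0.0178) and Mertk was low and higher in PGRN KO (1.41 against 3.24 FPKM, limma, adjusted p = 0.0064). In addition, the peritoneal macrophage gene Gata6 ranged from 3.78 to 4.26 FPKM in WT, against 3.84 to 5.07 FPKM in PGRN KO. Of the same marker list, Prg4 was the most abundant (means 14.2 and 12.7 FPKM in WT and PGRN KO) and did not pass. Icam2 was higher in PGRN KO (3.10 against 5.10 FPKM in WT and PGRN KO, limma, adjusted p = 0.00914), while Timd4, Rarb and Selp were near 0. PGRN KO replicate 6 stood apart: its deviation from the other libraries followed the length of the gene model (Spearman correlation across tested genes of -0.471, against 0.151 to 0.243 in the other 5 libraries), with short genes higher and long genes lower. Most genes described here are short, so their values are given with and without that library.

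Type I interferons signal through JAK kinases to a complex of transcription factors that binds the interferon-stimulated response element (ISRE), and interferon gamma acts on the GAS element. Several of the proteins act at membranes: IFITM proteins hinder the fusion of viruses with plasma and endosomal membranes, and tetherin holds budding virions at the cell surface. In macrophages these genes are carried at a basal level by tonic interferon and rise when cells sense a pathogen, so they are widely used as a readout of interferon signalling, although they are known for action against viruses rather than fungi.

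Promoter sequence was available from RefSeq (GRCm38.p6) for 7 of the 10 genes: Bst2, Ifi44, Ifi44l, Ifitm1, Ifitm2, Ifitm3 and Ifitm6. Ifi27, Ifi27l2a and Rtp4 had no entry. Windows of 300 bases, from 250 before to 50 after the start of the transcript, were searched on both strands for the ISRE core, which is GAAA, any 2 bases and GAAA again, and which 3.44% of all 32851 promoter windows held, for the shorter AAANNGAAA, which lies inside the core and which 10.6% held, and for TTCNNNGAA (GAS core), which 8.30% held. The 4 stretches below, each from 150 bases before to 30 bases after the start and written 5′ to 3′ on the strand of the gene, are shown because they set the most abundant members, Ifitm3 and Bst2, which did not pass the test between genotypes, beside Ifi44, which rose most, and Ifitm6, which fell. They lie at chr7:141010715-141010894, minus strand (Ifitm3), chr8:71537443-71537622, minus strand (Bst2), chr3:151749881-151750060, minus strand (Ifi44) and chr7:141016863-141017042, minus strand (Ifitm6). Capitals mark the ISRE core or, in Ifi44, the shorter form.
Ifitm3: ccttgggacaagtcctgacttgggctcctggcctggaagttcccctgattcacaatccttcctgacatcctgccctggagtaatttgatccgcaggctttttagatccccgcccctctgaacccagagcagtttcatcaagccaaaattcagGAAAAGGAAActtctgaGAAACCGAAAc
Bst2: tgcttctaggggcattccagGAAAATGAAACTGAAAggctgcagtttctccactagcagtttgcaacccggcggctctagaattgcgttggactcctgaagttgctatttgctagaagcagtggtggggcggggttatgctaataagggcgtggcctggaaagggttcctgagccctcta
Ifi44: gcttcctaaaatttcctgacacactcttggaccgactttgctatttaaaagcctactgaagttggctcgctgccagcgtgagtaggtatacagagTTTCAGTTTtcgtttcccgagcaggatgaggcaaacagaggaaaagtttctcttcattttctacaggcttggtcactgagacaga
Ifitm6: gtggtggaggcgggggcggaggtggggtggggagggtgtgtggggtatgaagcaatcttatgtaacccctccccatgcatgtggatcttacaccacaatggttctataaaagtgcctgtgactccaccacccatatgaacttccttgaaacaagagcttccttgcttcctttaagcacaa

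Ifitm3 held the ISRE core at positions 3 to 12 and 20 to 29 after the start, and a GAS core between and partly over them at 14 to 22. Bst2 held overlapping ISRE cores at -130 to -121 and -124 to -115 with a GAS core at -136 to -128 that overlapped the first, and Ifitm2 held 1 ISRE core at -46 to -37. Ifi44 held no ISRE core in its window and held the shorter form at -55 to -47, on the opposite strand, as TTTCAGTTT. Ifi44l held the shorter form at -192 to -184, outside the stretch of that length around its start. Ifitm6 held a GAS core at -10 to -2 and no ISRE form, and Ifitm1 held none of these letters. For both genes the start used lay inside the gene model, whereas for the others it lay close to its outer end. The stretch of Ifitm6 ends at 141017042 and its gene model at 141017924, on the minus strand. That of Ifitm1 begins at 140967926 and its gene model at 140967221, on the plus strand. Sequence around those outer ends was not searched, so these absences cannot be set beside the other windows. The shorter form was added to the search after the sequences had been seen, and these matches describe letters in 1 window a gene.

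Mean levels in WT ran from 1.87 FPKM (Ifi44) to 1773 FPKM (Ifitm3), and 3 of the 9 tested genes passed the test between genotypes. Ifi44 and Ifi27 rose in PGRN KO, Ifitm6 fell, and Ifitm1, Ifitm2, Ifitm3, Bst2, Ifi27l2a and Rtp4 did not pass (limma on log2(FPKM + 1), Benjamini-Hochberg adjusted over all 8882 tested genes). Over all tested genes, 24.2% passed, 10.4% higher and 13.8% lower in PGRN KO, so 3 of 9 (33.3%) is near the background. No overlap between groups was seen for 4 of the 9 genes, against 48.8% of all tested genes. With a log2 change of at least 1 also required, Ifi44 and Ifi27 passed, against 2.62% of all tested genes. Over the 9 genes the median log2 fold change was -0.05, against -0.03 over all tested genes.

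In WT the order from high to low was Ifitm3, Bst2, Ifitm2, Ifi27l2a, Rtp4, Ifi27, Ifitm1, Ifitm6 and Ifi44, and the ranges of neighbouring genes did not overlap. FPKM is a level per length, so these levels can be set beside each other, but only roughly. Part of the transcript sequence of Ifitm1, Ifitm2, Ifitm3 and Rtp4 is also found in other genes, and the level of Ifitm2 is uncertain for that reason. By WT mean, Ifitm3 was above 99.7% of all tested genes, Bst2 above 98.1%, Ifitm2 above 96.9%, Ifi27l2a above 94.2% and Rtp4 above 91.9%. Ifi27 was above 85.3% and Ifitm1 above 62.7%, while Ifitm6 and Ifi44 were in the lower part, above 25.3% and 18.1%. In PGRN KO the order was Ifitm3, Bst2, Ifitm2, Ifi27, Ifi27l2a, Rtp4, Ifi44, Ifitm1 and Ifitm6. There the ranges of Ifi27 and Ifi27l2a, of Ifi27l2a and Rtp4, and of Ifi44 and Ifitm1 overlapped, so those neighbours did not differ beyond their spread. Ifi27 and Ifi44 each moved up by 2 places.

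**Figure D1:**
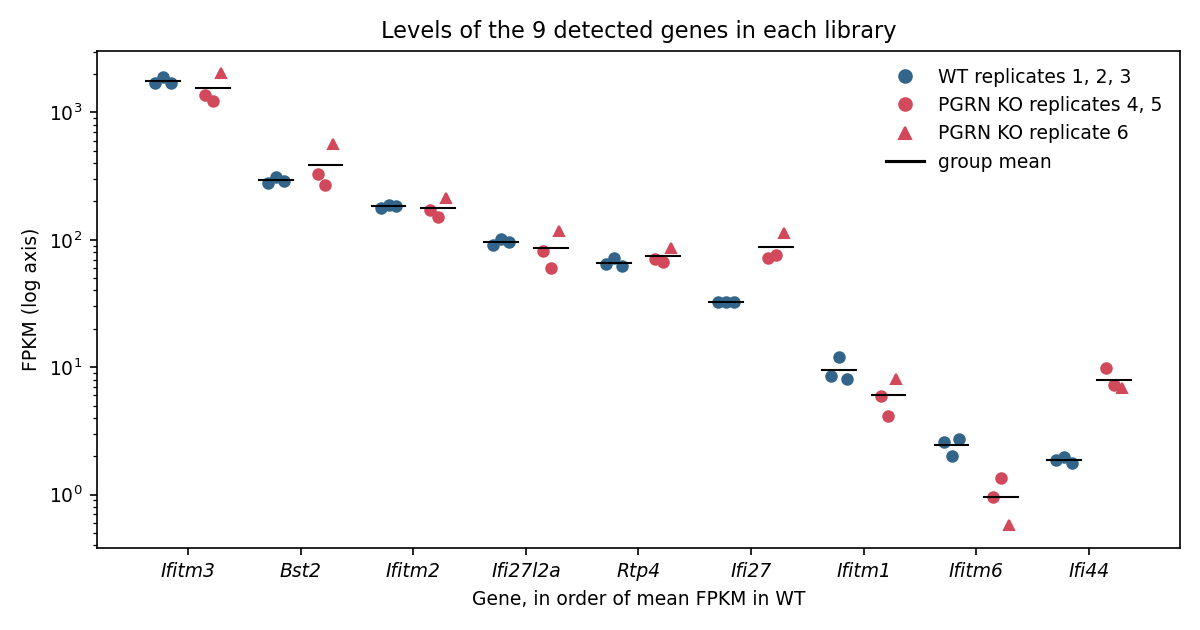
FPKM (log axis) of the 9 detected genes, in order of their mean in WT, with 1 point per library and a bar at the mean of each group of 3. Ifi27 and Ifi44 lie higher and Ifitm6 lower in all PGRN KO libraries, and PGRN KO replicate 6 (triangle) is the highest of all 6 libraries for 6 of the 9 genes.

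The IFITM family was examined first. Its 4 genes lie together on chromosome 7 in the order Ifitm2, Ifitm1, Ifitm3 and Ifitm6, and 1 of the 4 fell while 3 did not pass, with log2 fold changes below 0 for all 4. Ifitm6 (ENSMUSG00000059108, chr7:141015699-141017924, minus strand) is a less studied member of the family. WT replicates 1 to 3 measured 2.58, 2.02 and 2.76 FPKM (39, 27 and 45 fragments), against 0.957, 1.34 and 0.575 FPKM (15, 23 and 9 fragments) in PGRN KO replicates 4 to 6. Every PGRN KO library was below every WT library, and the mean in PGRN KO was 39.1% of that in WT (0.958 ± 0.383 against 2.45 ± 0.385 FPKM, SD, n = 3 each). The fitted change was -0.83 ± 0.17 log2 units (SE, limma, adjusted p = 0.0146), on a scale that understates the change of a low gene. With log2 values of recovered fragments (limma voom) it was -1.39. The gene passed the filter on low values through its WT level. Without PGRN KO replicate 6 the log2 fold change was -0.68 (adjusted p = 0.00981). Its call was lost without the filter (adjusted p = 0.0533), without WT replicate 1 (0.0646) and without WT replicate 3 (0.0617), in a range of 0.0014 to 0.0646 over 14 limma fits.

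Ifitm1 (ENSMUSG00000025491, chr7:140967221-140969825, plus strand) encodes a family member that sits mainly in the plasma membrane. The WT libraries measured 8.58, 12.1 and 8.06 FPKM, against 5.91, 4.15 and 8.04 FPKM in PGRN KO. The groups did not overlap, by a narrow margin set by WT replicate 3 and PGRN KO replicate 6. The gene did not pass, with a log2 fold change of -0.61 ± 0.23 (SE, 95% interval -1.15 to -0.06, limma, adjusted p = 0.0978). Without PGRN KO replicate 6 it was -0.81 (adjusted p = 0.0204), and with each library corrected for gene length by loess the gene also passed (adjusted p = 0.0209). Of 783 31-base words searched from its transcripts, 10.3% were also found in transcripts of other genes, among them Ifitm3 and pseudogenes. Part of its fragments therefore cannot be placed with certainty. Transcripts were searched in short pieces, and words across the ends of pieces were left out for every gene. Such shares thus cover only part of the words and may be too low.

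Ifitm3 (ENSMUSG00000025492, chr7:141009586-141010770, minus strand) encodes the endosomal family member that restricts influenza virus, and it was the most abundant gene of the 10. Its level was 1707, 1897 and 1714 FPKM in the WT libraries, against 1379, 1223 and 2023 FPKM in PGRN KO. PGRN KO replicates 4 and 5 were below all WT libraries and replicate 6 was above all of them. Its log2 fold change was -0.23 ± 0.20 (SE, 95% interval -0.70 to 0.23, limma, adjusted p = 0.411), and without PGRN KO replicate 6 it was -0.45 (adjusted p = 0.00825). Of its words searched, 17.3% were shared.

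Ifitm2 (ENSMUSG00000060591, chr7:140954837-140955987, minus strand), also an endosomal family member, measured 178, 188 and 184 FPKM in WT, against 173, 149.9 and 213 FPKM in PGRN KO. The WT libraries lay inside the PGRN KO range. This gave a log2 fold change of -0.05 ± 0.14 (SE, 95% interval -0.38 to 0.27, limma, adjusted p = 0.798), and without PGRN KO replicate 6 it was -0.19 (adjusted p = 0.0826). Of its words searched, 42.8% were shared, and 24.6% were found in Gm45717. That gene model overlaps Ifitm2 on the same strand and was listed at 0, so the level of Ifitm2 is uncertain.

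Because the 4 genes share libraries and a locus, each was also set against Ifitm3 within each library, which removes library scaling. Ifitm3 made up 89.8% to 90.4% of the summed IFITM FPKM in WT and 88.5% to 90.1% in PGRN KO. The log2 ratio of Ifitm1 to Ifitm3 was -7.55 ± 0.232 in WT, against -8.01 ± 0.171 in PGRN KO (SD, n = 3 each), a difference of -0.46 without overlap (exact permutation test, two-sided, p = 0.1, the smallest value that 3 against 3 libraries can give). The differences in log2 ratio were 0.18 for Ifitm2 (exact permutation p = 0.2) and -1.19 for Ifitm6 (exact permutation p = 0.2), with overlap in both. For Ifitm6 the difference was -0.61 after the correction for gene length, -0.65 when PGRN KO replicate 6 was left out and -1.63 when replicate 5 was. This permutation test cannot reach a p under 0.05 with 3 against 3 libraries, so whether the members of the family differ in their change was not settled by it.

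**Figure D2:**
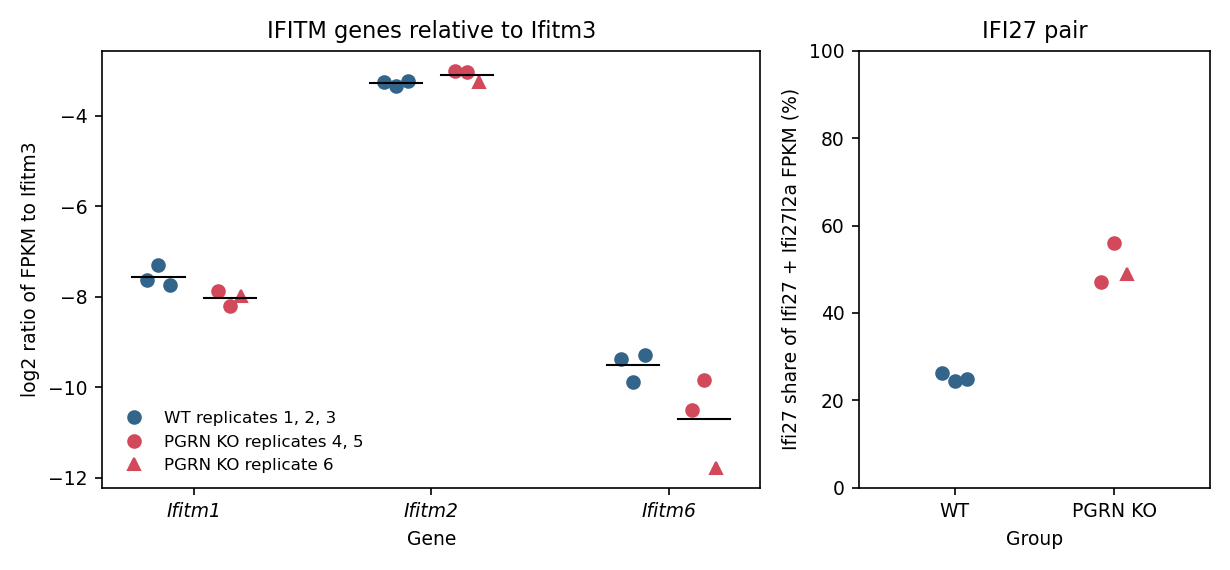
Left, log2 ratio of FPKM of Ifitm1, Ifitm2 and Ifitm6 to Ifitm3 in each library, with bars at the group means; right, the share of Ifi27 in the summed FPKM of Ifi27 and Ifi27l2a (percent). Ifi27 held 24.4% to 26.3% of the pair in WT and 47.2% to 56.0% in PGRN KO, and PGRN KO replicate 6 (triangle) lies within the PGRN KO range there.

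Tetherin was not called. Bst2 (ENSMUSG00000046718, chr8:71534255-71537456, minus strand) measured 279.9, 312 and 289 FPKM in WT, against 330.2, 267 and 565 FPKM in PGRN KO. Only PGRN KO replicate 6 was far from the other 5 libraries, and the groups overlapped. With all libraries the log2 fold change was 0.33 ± 0.26 (SE, 95% interval -0.28 to 0.94, limma, adjusted p = 0.382), and without PGRN KO replicate 6 it was 0.02 (adjusted p = 0.895). It passed under none of the 15 other limma fits.

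The IFI27 pair differed in its values. Ifi27 and Ifi27l2a, small hydrophobic membrane proteins of the ISG12 family, are neighbours on chromosome 12 on opposite strands with 1927 bases between them. Ifi27 (ENSMUSG00000064215, chr12:103434211-103440239, plus strand) measured 32.2, 32.7 and 32.2 FPKM in WT, against 72.3, 76.5 and 113.5 FPKM in PGRN KO. The WT libraries were nearly equal, and every PGRN KO library was above all of them. The mean rose from 32.4 ± 0.261 to 87.4 ± 22.7 FPKM (SD, n = 3 each), with a log2 fold change of 1.38 ± 0.17 (SE, limma, adjusted p = 0.00335). The exact permutation test of the means gave p = 0.1, the smallest possible value. Ifi27 was called in all 15 other limma fits, with log2 fold changes of 1.175 to 1.497 and adjusted p of 2.86e-05 to 0.0241. Without PGRN KO replicate 6 the log2 fold change was 1.18 (adjusted p = 0.000273).

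Ifi27l2a (ENSMUSG00000079017, chr12:103442167-103443680, minus strand) was the more abundant gene of the pair in WT, at 90.2, 101.2 and 96.7 FPKM, against 80.9, 60.01 and 118.1 FPKM in PGRN KO. PGRN KO replicates 4 and 5 were below WT and replicate 6 above it. The fitted log2 fold change was -0.20 ± 0.23 (SE, 95% interval -0.74 to 0.33, limma, adjusted p = 0.538), and without PGRN KO replicate 6 it was -0.46 (adjusted p = 0.0328). The share of Ifi27 in the sum of the pair was 26.3%, 24.4% and 25.0% in WT and 47.2%, 56.0% and 49.0% in PGRN KO. None of the 31-base words searched, 1255 for Ifi27 and 223 for Ifi27l2a, was found in transcripts of other genes. That search covered only part of the words, so sharing in the rest was not tested. The strand setting of the counting is not known here, and both gene models do not overlap.

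Ifi44 had the largest change of the 10 genes. Ifi44 (ENSMUSG00000028037, chr3:151730922-151749960, minus strand) encodes a cytoplasmic protein with a GTPase-like domain and is among the genes that the study itself named from these libraries, so its direction is not independent evidence. WT libraries measured 1.87, 1.97 and 1.76 FPKM (192, 179 and 195 fragments), against 9.83, 7.21 and 6.87 FPKM (1043, 837 and 728 fragments) in PGRN KO. The groups were far apart, and PGRN KO replicate 6 was the lowest of its group. The mean was 4.26-fold higher in PGRN KO (7.97 ± 1.62 against 1.87 ± 0.106 FPKM, SD, n = 3 each). On the log2 scale it rose by 1.63 ± 0.14 (SE, limma, adjusted p = 0.00119), in a range of 1.49 to 2.07 over the 14 other limma fits that tested it, all of which called it. Without PGRN KO replicate 6 it was 1.72 (limma, adjusted p = 0.00059).

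Its neighbour Ifi44l (ENSMUSG00000039146, chr3:151758737-151762892, minus strand), the paralog 8776 bases away, was listed at 0 fragments in all 6 libraries. A count of 0 allows up to 3 fragments, or 0.115 to 0.147 FPKM by library. The GENCODE annotation tags its transcripts with a reference genome error, so the absence of fragments describes this gene model only.

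Rtp4 (ENSMUSG00000033355, chr16:23520291-23614222, plus strand), a chaperone that brings opioid and taste receptors to the cell surface, measured 63.98, 72.1 and 62.02 FPKM in WT, against 71.2, 66.4 and 86.5 FPKM in PGRN KO. The groups overlapped. The log2 fold change was 0.17 ± 0.12 (SE, 95% interval -0.13 to 0.46, limma, adjusted p = 0.352), and without PGRN KO replicate 6 it was 0.06 (adjusted p = 0.574). Masp1 lies over Rtp4 on the opposite strand but was measured at a mean of 0.0354 FPKM. Gm45338 lies over Rtp4 on the same strand and was measured at a mean of 0.00382 FPKM. Of the words searched from Rtp4, 6.65% were found in Gm45338, so part of the fragments of Rtp4 cannot be placed with certainty.

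The part of 1 library in these values was then set out by gene length. PGRN KO replicate 6 was the highest PGRN KO library for 7 of the 9 genes and the highest of all libraries for 6, and 7 of the 9 gene models are no longer than that of Ifi27 (1467 bases). On the log2(FPKM + 1) scale, replicate 6 minus the mean of replicates 4 and 5 was 0.92 for Bst2, 0.75 for Ifi27l2a, 0.64 for Ifitm3, 0.60 for Ifitm1 and Ifi27, 0.40 for Ifitm2 and 0.33 for Rtp4. It was -0.26 for Ifi44, the longest gene model of the 10, and -0.44 for Ifitm6, which is short and has few fragments. Over all tested genes the median difference was 0.38 in the shortest of 5 length classes of equal size (up to 1776 bases, 10th to 90th percentile -0.53 to 0.83) and -0.32 in the longest (from 6950 bases). Of the 8 genes other than Bst2, those in the shortest class lay inside that range, and Bst2 lay above it.

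**Figure D3:**
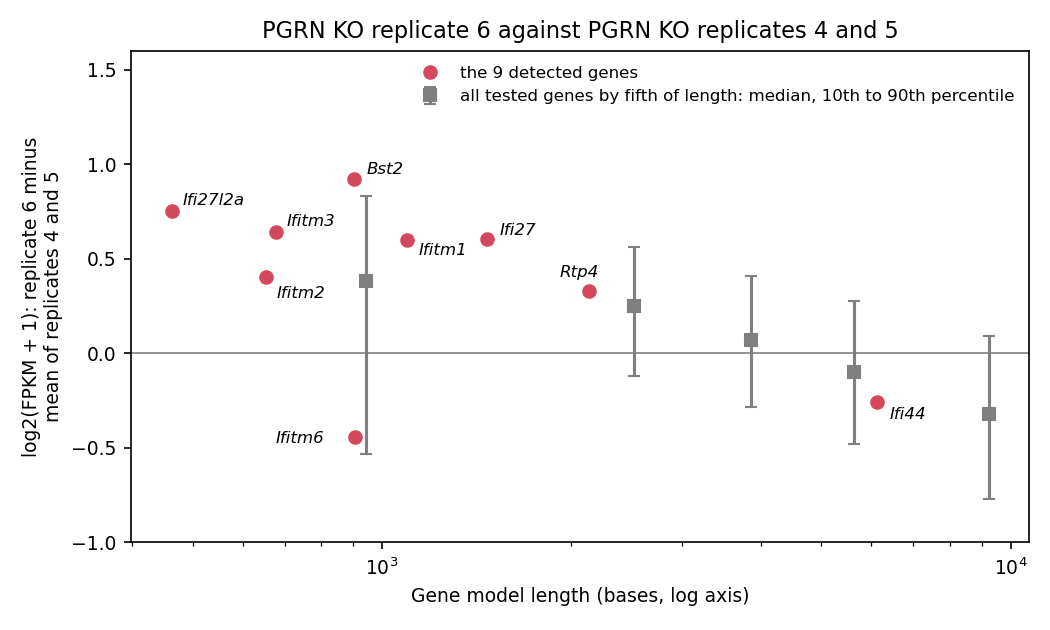
Difference of log2(FPKM + 1) between PGRN KO replicate 6 and the mean of PGRN KO replicates 4 and 5, against gene model length (bases, log axis), for the 9 detected genes (red) and for all tested genes in 5 length classes (grey, median with the 10th to 90th percentile). Ifi44 and Ifitm6 lie below 0 and the other 7 genes above it, and the grey medians run from 0.38 to -0.32.

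Without PGRN KO replicate 6, 6 of the 9 genes passed, with Ifi44 and Ifi27 higher and Ifitm1, Ifitm3, Ifitm6 and Ifi27l2a lower. That fit called 41.3% of all tested genes, 16.2% higher and 25.1% lower. With the correction for gene length and all 6 libraries, 4 passed: Ifi44, Ifi27, Ifitm6 and Ifitm1, against 31.6% of all tested genes (15.5% higher, 16.1% lower). With both changes 6 passed, against 40.9% (19.4% higher, 21.5% lower). Ifi44 and Ifi27 kept their direction and their call in these 3 fits. Ifitm6 was called in them too, but they keep the filter on low values and all WT libraries, without which its call was lost.

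**Figure D4:**
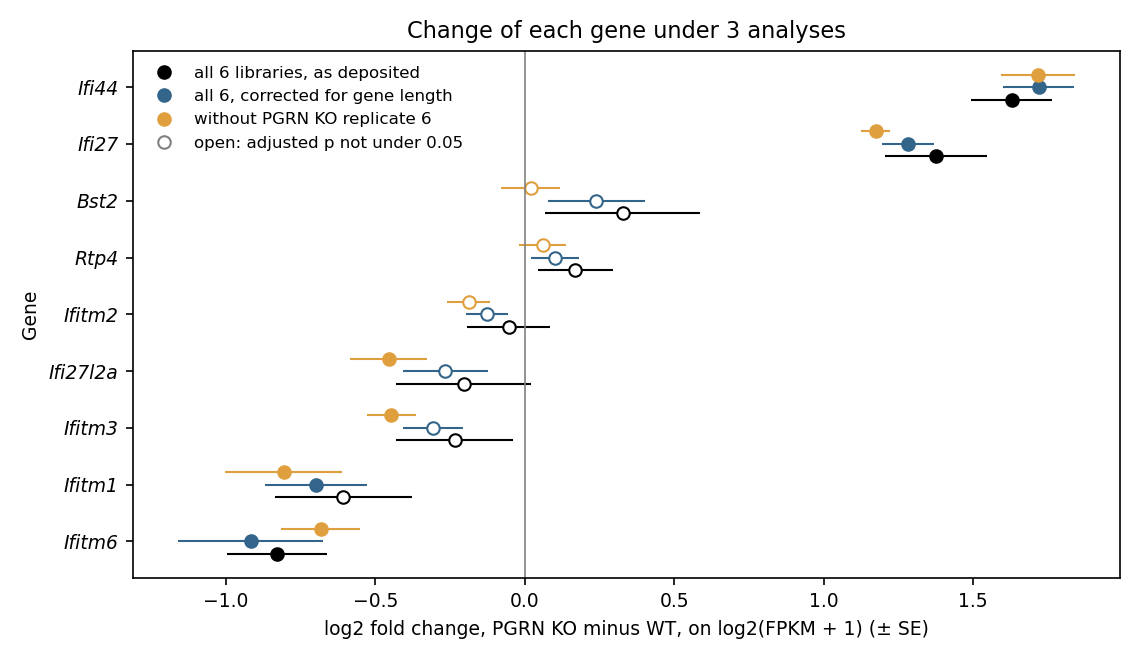
Log2 fold change (PGRN KO minus WT) ± SE of each gene with all 6 libraries as deposited (black), with all 6 corrected for gene length (blue) and without PGRN KO replicate 6 (orange), filled where the adjusted p was under 0.05. Ifi44 and Ifi27 lie above 1 and are filled in all 3 analyses, and Ifitm1, Ifitm3 and Ifi27l2a are filled only in analyses that correct for length or leave out replicate 6.

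Relatives of these genes were at or near 0. None of 7 related genes reached 1 FPKM on average. Ifitm5, best known from bone, measured 0.875 ± 0.374 FPKM in WT, against 0.490 ± 0.236 FPKM in PGRN KO (SD, n = 3 each), from 4 to 18 fragments a library. Ifitm10 was at 0.326 and 0.292 FPKM, Ifitm7 had 0 to 5 fragments, Ifi27l2b had 1 fragment in 1 PGRN KO library, and Rtp1, Rtp2 and Rtp3 had none.

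Of 7 genes whose proteins modify or bind these proteins, 6 were tested, 1 rose and 2 fell, 3 calls beside a background of 24.2% of all tested genes. Zdhhc20, a palmitoyltransferase that acts on IFITM3, fell from 20.4 ± 0.457 to 12.7 ± 2.24 FPKM (SD, n = 3 each, log2 fold change -0.66 ± 0.13 SE, limma, adjusted p = 0.0145). Vapa, an endoplasmic reticulum protein that IFITM3 binds, fell from 64.7 ± 3.81 to 52.0 ± 3.11 FPKM (limma, adjusted p = 0.0492). Fkbp5, an immunophilin that binds IFI44 and IFI44L, rose from 0.760 ± 0.0767 to 1.70 ± 0.110 FPKM (limma, adjusted p = 0.00594), and passed the filter on low values through its PGRN KO level. The values for the others were 4.68 and 4.50 FPKM for Zmpste24, 1.40 and 1.61 FPKM for Setd7, and 33.7 and 34.2 FPKM for Tbk1 (WT and PGRN KO means). Nedd4, a ubiquitin ligase of IFITM3, was under the filter.

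The other genes of the interferon response were counted from a list of 40 genes chosen with earlier results of these data known. All 40 were tested, 26 (65.0%) rose and none fell (limma, with the lowest log2 fold change at 0.04), against 10.4% higher and 13.8% lower over all tested genes, and their median log2 fold change was 0.70. Without WT replicate 1 the count was 14, and without WT replicate 3 it was 17, in fits that called 8.03% and 9.94% of all tested genes. The largest changes were those of Mx1, a gene of the MX GTPase family, from 17.5 ± 2.39 to 68.7 ± 11.1 FPKM (SD, n = 3 each, limma, adjusted p = 0.00119), and Cmpk2, a mitochondrial nucleotide kinase, from 55.0 ± 5.82 to 178 ± 27.1 FPKM (limma, adjusted p = 0.00119). Of the 9 genes described here, 2 (22.2%) rose. The difference between both lists was not tested.

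**Figure D5:**
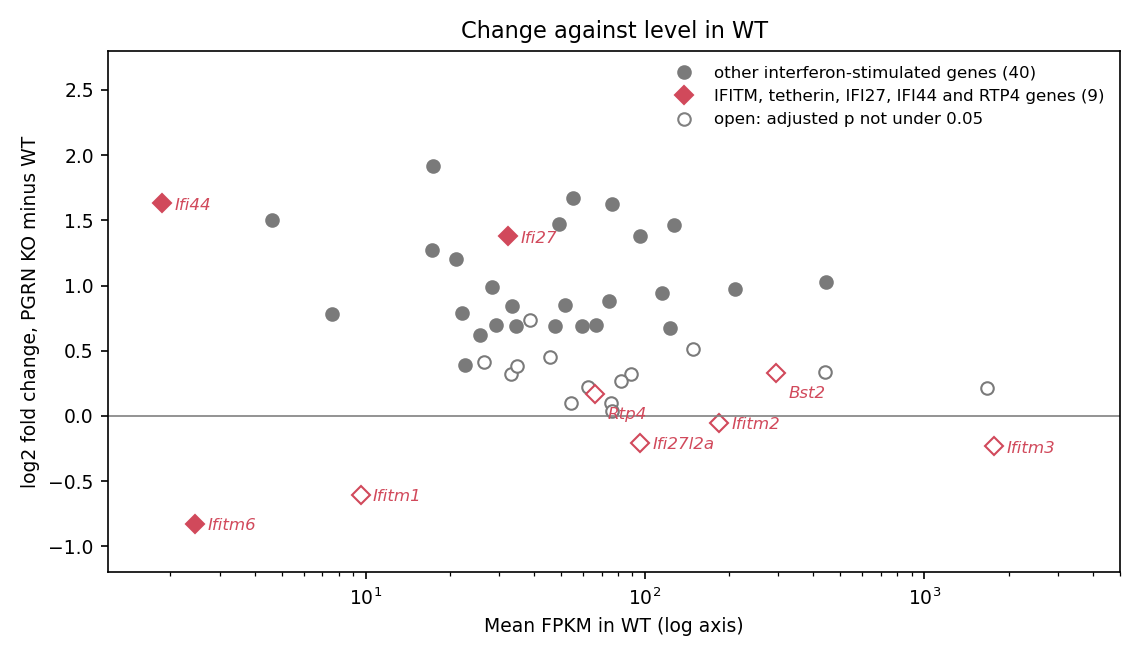
Log2 fold change (PGRN KO minus WT, on log2(FPKM + 1)) against mean FPKM in WT (log axis) for the 9 genes (diamonds) and 40 other interferon-stimulated genes (circles), filled where the adjusted p was under 0.05. The other genes, a list chosen with earlier results of these data known, lie above 0 at all levels. Ifitm6, Ifitm1, Ifitm3, Ifi27l2a and Ifitm2 lie below 0, and of these only Ifitm6 is filled.

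Of 18 genes that carry the interferon signal, 17 were tested, 3 rose and 1 fell, 4 calls in all, a share near the 24.2% of all tested genes. Tyk2, a kinase of the type I receptor, rose from 2.50 to 4.41 FPKM (limma, adjusted p = 0.00866). Stat2, a transcription factor of the type I response, also rose (44.0 to 64.8 FPKM, limma, adjusted p = 0.0157). Jak1, the kinase common to the type I and type II receptors, fell from 63.0 to 40.9 FPKM (limma, adjusted p = 0.0146). Ifnb1, the ligand, measured 5.41 ± 1.68 FPKM in WT, against 7.25 ± 1.77 FPKM in PGRN KO (SD, n = 3 each, limma, adjusted p = 0.274), and Ifna4 was listed at 0.

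Few expressed genes lay near the members. Within 100 kb of the 10 genes lie 55 other genes, of which 14 were tested, 1 rose and none fell (limma, with the lowest log2 fold change at -0.07). The shares over all tested genes were 10.4% higher and 13.8% lower. The 1 called was Slc27a1, a fatty acid transporter gene near Bst2, with 14.0 FPKM in WT against 18.7 FPKM in PGRN KO (limma, adjusted p = 0.0335).

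The genes whose levels over the 6 libraries were most like those of a member were found among 1466 tested genes that ranged by at least 1 on the log2 scale. For Ifi44 these were Trim14, a mitochondrial adaptor of antiviral signalling (Pearson r = 0.9988, 3.21 FPKM in WT against 8.46 FPKM in PGRN KO), and Dennd3 (r = 0.9986, 1.16 and 3.38 FPKM). For Bst2 they were Rps21, a ribosomal protein gene (r = 0.9939), and Atp5k, a subunit gene of ATP synthase (r = 0.9852). For Ifitm3 they were the gene models Gm38158 (r = 0.9925) and Gm10157 (r = 0.971), for Ifi27l2a Gm10157 (r = 0.9935) and Gm11966 (r = 0.9771), and for Rtp4 Apip (r = 0.9842) and Fabp3 (r = 0.9837). These correlations describe 6 libraries in 2 groups that share PGRN KO replicate 6.

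Markers of other cells moved with genotype beside these results. The summed FPKM of 10 neutrophil markers was 80.2 to 87.1 in WT and 53.0 to 54.5 in PGRN KO, a difference that lay almost wholly in S100a8, at 48.3 to 52.8 and 21.2 to 25.6 FPKM. Mmp8 (20.2 and 19.5 FPKM) and Csf3r (12.9 and 10.2 FPKM) did not pass (limma, adjusted p = 0.717 and 0.0887), with the defining genes Ly6g and Cxcr2 at 0. That of 5 monocyte markers was 16.3 to 17.8 and 10.0 to 14.3 FPKM, with Ly6c2, itself known to respond to interferon, at 11.6 to 12.7 and 3.01 to 3.70 FPKM. That of 5 plasmacytoid dendritic markers was 7.498 to 7.582 and 20.3 to 34.6 FPKM, nearly all of it Cox6a2, with Klk1 at 0 and Siglech at most 0.0156 FPKM. B cell markers summed to 1.501 to 2.495 and 6.62 to 8.92 FPKM, and mast cell markers to 1.42 to 1.75 and 5.44 to 7.35 FPKM. The mast cell difference lay mostly in Cma1 (means 0.789 and 4.215 FPKM), while Kit went the other way (0.345 and 0.210 FPKM). Dendritic markers summed to 27.3 to 34.6 and 15.8 to 19.3 FPKM, with Cd209a at 0. Most of that sum was Ccr7 (means 28.9 and 16.6 FPKM, limma, adjusted p = 0.00775). Flt3 and Xcr1 were also lower in PGRN KO, and Zbtb46 was not (0.550 and 0.698 FPKM). T and NK cell markers summed to 0.783 to 0.949 and 1.29 to 1.62 FPKM, mesothelial and fibroblast markers to 0.498 to 0.581 and 0.742 to 1.42 FPKM. In that last sum the fibroblast genes Col1a1 (means 0.227 and 0.548 FPKM), Col3a1 and Pdgfra had higher means in PGRN KO. The mesothelial genes Msln (means 0.103 and 0.0705 FPKM), Krt19 and Upk3b had lower means, with overlap between groups. Fewer cells of a type and less RNA per cell cannot be told apart in bulk samples, and the part of these cells in the changes of Ifi44, Ifi27 and Ifitm6 was not tested.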

How the data were processed

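Polyadenylated RNA of 6 libraries was sequenced after preparation with the NEBNext Ultra kit. The authors aligned reads to the mouse genome, counted fragments per gene and deposited FPKM for each gene and library. The submitters' processing notes name CASAVA, HISAT2 2.0.5, featureCounts 1.5.0-p3, DESeq2 1.20.0 and the builds mm10 and GRCm38, and the study's methods name HISAT and HTSeq, so the counting tool is not settled. Neither source gives the strand setting. Among gene identifiers, 99.8% were found in a GENCODE annotation of GRCm38, and all 10 members had the same coordinates.

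Deposited FPKM times gene length gave whole fragments for 100% of values in each library (tolerance 0.001 of a fragment). The median tested gene was covered by 429.75 fragments in a library. The authors' divisor was 0.925 to 1.09 times the summed fragments, so FPKM was already scaled between libraries. The 95% intervals are those of limma and rest on the spread between libraries, while the limit for a count of 0 covers counting error only, since reads carried no molecular identifiers.

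Values were analysed as log2(FPKM + 1) for genes with a mean of at least 1 FPKM, with limma 3.58.1 in R 4.3.3 (variance trend, two-sided, no covariates). Adjustment was by Benjamini-Hochberg over all tested genes at a threshold of 0.05, and limma was tested on simulated data. Those simulated data held no library that deviated with gene length, so that test does not cover a library such as PGRN KO replicate 6. Single values were compared with the exact permutation test over 20 splits. The members and lists were chosen with earlier results of these data known. Named genes were all members, tested relatives and partners, the 2 largest changes in each direction among called genes of the interferon lists, called neighbours, and the 2 most correlated genes for the most abundant member of each group. Stat2 is named beyond this rule, after its values were seen, and 1 gene that the rule names is counted but not reported here.

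Alternatives were a pseudocount of 0.1, no filter, a mean of at least 5 FPKM, a TPM scale, quantile normalization, sample quality weights, loess correction for length (span 0.5) with and without PGRN KO replicate 6, limma voom on recovered fragments, a log2 change of at least 1 in size, and leaving out each library.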

Additional observations from a re-analysis of the deposited data

How the results depend on the processing

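Of 133 values of single members under other settings, 117 kept their direction and their side of the threshold, 10 became significant, 3 lost significance and 3 changed sign. Those that changed sign were small: Ifitm2 was at 0.0004174 on the TPM scale and, leaving out 1 library, from -0.1878 to 0.06353 (without PGRN KO replicates 6 and 5), and Ifi27l2a from -0.4554 to 0.0271 (the same libraries). The number of members called was 1 with a mean of at least 5 FPKM (1 higher, none lower). At that filter Ifi44 and Ifitm6 were not tested, and 30.5% of its tested genes were called. With sample quality weights 6 members were called (4 lower), against 47.6% of all tested genes (2468 of 8882 lower). With length correction and without PGRN KO replicate 6 the number was 6 (4 lower), against 40.9% (21.5% lower). Members called lower were 0 without a filter, where 763 of 22912 genes were lower. They were 0 with a log2 change of at least 1 required (2.62% of all tested genes, either direction). With length correction they were 2, against 16.1% lower. Leaving out 1 library at a time gave 2 to 6 members called and 0 to 4 called lower. Those fits called 8.03% to 41.3% of all tested genes, with 382 to 2230 of 8882 lower. Of the other interferon-stimulated genes, 10 rose by at least 1, and 14 to 33 rose when 1 library was left out, with 14 without WT replicate 1 and 17 without WT replicate 3.

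Genes called over the whole table numbered 2151. They were 713, 855 and 883 without WT replicate 1, 2 or 3, 1390 and 1601 without PGRN KO replicate 4 or 5, 3668 without replicate 6, 1366 without a filter and 4225 with quality weights, in which replicate 6 had a weight of 0.0899. Higher calls were 921 of 2151 as reported and 922 of 1530 on the TPM scale. The causes were not tested, apart from fewer libraries or genes by construction. No paired analysis was possible because WT and PGRN KO share no replicate numbers.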
